A study of Mus musculus with 9 samples.

Results

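The genes described here are 8 chemokine ligand genes (Cxcl1, Cxcl2, Cxcl10, Cxcl12, Cxcl13, Cxcl16, Ccl2 and Cx3cl1) and the cytokine gene Il6. They were taken by gene symbol from a table of read counts for 23329 genes in pancreatic islets of male mice, and all 9 had a row. The table holds 5 libraries titled as mutants, whose genotype label is Pdx1A4, and 4 titled as controls, whose genotype label is Pdx1+/-. The labels do not explain Pdx1A4, give no age and no treatment, and name no cell type in which the allele would act. By their label the controls are heterozygous for Pdx1 themselves, and no library labelled wild type was compared. Whether each library is a different animal is not stated, and p-values therefore speak of the spread among these libraries, which may be technical.

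Chemokines are small secreted proteins that draw leukocytes along a gradient by binding receptors coupled to G proteins, and they are classed by the spacing of their first cysteines (CXC, CC, CX3C). Many are induced by NF-kB after interleukin 1 or tumour necrosis factor, in islets as elsewhere, while others such as Cxcl12 are made by stromal cells without a stimulus. Interleukin 6 is a cytokine, also induced by NF-kB, that signals through the shared subunit gp130 and the transcription factor STAT3. The title of the series names NF-kB, the circadian clock and anti-IL1B therapy in connection with beta cell function.

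All 9 genes passed the filter on low counts. In mutants Cxcl13, Il6 and Cxcl1 were lower and Cxcl12 and Cxcl16 were higher than in controls (edgeR quasi-likelihood test, adjusted p under 0.05), while Ccl2, Cx3cl1, Cxcl2 and Cxcl10 did not pass. Across all 12402 genes tested, 11.8% were lower and 20.6% higher, against 3 and 2 of these 9. With so large a share of all genes called, these counts say nothing particular about the 9 genes. The median log2 fold change was -0.75 over the 9 genes and 0.04 over all genes tested. Of all calls 63.6% were higher, or 51.8% with relative log expression (RLE) scaling and 49.6% with DESeq2. RLE scaling moved the median of all genes by -0.10 on the log2 scale, and under it the 9 genes kept their directions and calls.

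Regulatory sequence was read for the 7 of the 9 genes that have an entry in a RefSeq promoter table (GRCm38.p6). The 250 bases before the start site are shown for 6 of them: the 3 called lower (Cxcl13, Il6 and Cxcl1), Cxcl12, which was called higher, and Cxcl2 and Cxcl10, which did not pass but hold the same NF-kB form as Il6 and Cxcl1. Each is printed 5′ to 3′ on the gene's strand, in lower case, with matches to the searched motifs in capitals. The motifs were an NF-kB (kB) form of GGGA and TTCC with any 2 bases between them, an AP-1 form TGANTCA, an interferon response form of GAAA repeated after any 2 bases, a C/EBP form TTGNNCAA, the E-box CACGTG and the GC box GGGCGG on both strands, and the TATA form TATAAA on the gene's strand. The letters were chosen with these sequences in view.
Cxcl13 (chr5:95956689-95956938, plus strand): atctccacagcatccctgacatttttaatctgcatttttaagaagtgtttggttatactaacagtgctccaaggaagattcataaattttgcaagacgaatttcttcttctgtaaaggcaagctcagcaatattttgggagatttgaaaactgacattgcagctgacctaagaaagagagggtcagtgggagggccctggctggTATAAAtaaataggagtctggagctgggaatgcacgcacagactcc
Il6 (chr5:30012864-30013113, plus strand): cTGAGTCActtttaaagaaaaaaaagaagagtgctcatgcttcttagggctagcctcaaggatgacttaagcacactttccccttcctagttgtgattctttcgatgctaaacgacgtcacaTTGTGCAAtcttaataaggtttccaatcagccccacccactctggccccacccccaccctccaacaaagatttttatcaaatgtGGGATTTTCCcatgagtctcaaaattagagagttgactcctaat
Cxcl1 (chr5:90890995-90891244, plus strand): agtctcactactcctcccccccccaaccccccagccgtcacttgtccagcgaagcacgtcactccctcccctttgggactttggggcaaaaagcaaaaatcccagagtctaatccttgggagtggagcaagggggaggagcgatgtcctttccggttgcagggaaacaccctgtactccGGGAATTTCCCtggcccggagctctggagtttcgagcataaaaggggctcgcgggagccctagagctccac
Cxcl2 (chr5:90903649-90903898, plus strand): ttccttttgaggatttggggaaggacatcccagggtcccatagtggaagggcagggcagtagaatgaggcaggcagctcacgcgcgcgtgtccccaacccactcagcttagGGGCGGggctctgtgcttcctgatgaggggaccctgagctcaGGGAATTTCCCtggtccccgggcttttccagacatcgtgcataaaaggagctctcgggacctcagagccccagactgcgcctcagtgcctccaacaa
Cxcl10 (chr5:92348890-92349139, minus strand): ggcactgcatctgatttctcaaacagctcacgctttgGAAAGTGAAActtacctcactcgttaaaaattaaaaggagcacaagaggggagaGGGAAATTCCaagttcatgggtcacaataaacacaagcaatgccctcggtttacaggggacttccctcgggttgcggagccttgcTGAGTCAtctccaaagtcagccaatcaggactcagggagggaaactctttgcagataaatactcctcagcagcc
Cxcl12 (chr6:117168285-117168534, plus strand): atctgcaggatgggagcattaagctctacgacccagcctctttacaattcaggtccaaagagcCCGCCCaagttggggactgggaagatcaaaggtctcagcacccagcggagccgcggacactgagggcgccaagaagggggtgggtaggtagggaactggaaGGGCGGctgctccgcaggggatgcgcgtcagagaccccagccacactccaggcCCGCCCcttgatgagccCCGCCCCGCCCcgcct

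The kB form occurred in 4 of the 7 windows (Il6, Cxcl1, Cxcl2 and Cxcl10) and in 1.21% of all 32851 promoter windows of the same length. In Cxcl1 and Cxcl2 it is the same run of letters, which matches on both strands, beginning 71 and 97 bases before the start site. In Il6 it begins 44 bases before the start site, with a C/EBP form 128 bases and an AP-1 form at the far end of the window. Cxcl10 holds the kB form at 159 bases, an interferon response form at 213 and an AP-1 form at 74. GC boxes, which 32.7% of all windows hold, were in Cxcl12, Cxcl2 and Cx3cl1. The TATA form, which 7.59% hold, was in Cxcl13 and Cx3cl1. The AP-1, interferon response and C/EBP forms occurred in 6.75%, 2.98% and 5.65% of all windows, and the E-box, in 6.02% of them, was in none of the 7. Of the 4 genes with the kB form, Il6 and Cxcl1 were lower in mutants and Cxcl2 and Cxcl10 did not pass. A match describes letters in a window and is not a measured site.

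The libraries held 7186462 to 9163253 counts in mutants and 6092010 to 7375376 in controls, and the genotype's own gene, Pdx1, had 129, 31, 47, 122 and 149 counts in mutants 1 to 5, against 263, 219, 203 and 234 in controls 1 to 4, a log2 fold change of -1.19 (standard error 0.40, edgeR adjusted p = 0.0461, not passing when any 1 control, mutant 1 or mutant 3 was left out). Islet hormone genes held 0.0691% to 7.99% of counts in mutants and 16.9% to 21.0% in controls, lowest in mutants 2 and 3. Summed acinar markers were 72908 to 182462 CPM (counts scaled to library size with TMM) in mutants and 11922 to 19655 CPM in controls. Beta cell markers summed to 686 to 61803 CPM in mutants and 107798 to 179366 CPM in controls. All libraries were used unless stated, and the effect of leaving out mutants 2 and 3 is stated for the called genes among the 9 and where it changed a call. In bulk RNA fewer cells of a type and less RNA per cell cannot be told apart.

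Cxcl13, the B cell attracting chemokine that binds the receptor Cxcr5, was lower in mutants. Its counts were 16, 4, 2, 3 and 6 in mutants 1 to 5, against 78, 50, 57 and 67 in controls 1 to 4, or 0.804 ± 0.659 CPM in mutants (SD, n = 5) and 8.04 ± 1.79 CPM in controls (SD, n = 4). Every mutant library lay below every control, as did 14.7% of all genes tested. The difference was -3.29 on the log2 scale (standard error 0.48), or 9.77-fold, at an edgeR adjusted p of 0.00244. At 2 to 6 counts in mutants 2 to 5 the size of the fall is uncertain. Without mutant 1, the mutant library with the most Cxcl13, the log2 fold change was -3.93, and without mutants 2 and 3 it was -2.94 (edgeR adjusted p = 0.000824 and 0.00683).

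Il6, the interleukin that acts through gp130 and STAT3, was lower in mutants. It had 1.57, 0.270, 1.06, 4.68 and 2.27 CPM in mutants 1 to 5, against 6.15, 4.24, 19.0 and 18.3 CPM in controls 1 to 4. The groups overlapped through mutant 4, which lay above control 2, and controls 3 and 4 were well above the other 2 controls. The difference was -2.61 on the log2 scale (standard error 0.68) at an edgeR adjusted p of 0.0183. The counts behind these values were 13, 2, 7, 32 and 17 in mutants, against 45, 29, 162 and 164 in controls. It passed in each fit that left out 1 library, with log2 fold changes from -3.27 (without mutant 4) to -2.29 (without control 3, edgeR adjusted p = 0.0497), and without mutants 2 and 3 (-2.16, edgeR adjusted p = 0.0392).

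Cxcl1 and Cxcl2 are close relatives that attract neutrophils through the receptor Cxcr2 and lie side by side on chromosome 5 (90891245 to 90893121 and 90903899 to 90905938, GRCm38). Cxcl1 had 48.6, 36.7, 35.3, 32.9 and 53.7 CPM in mutants 1 to 5, against 50.7, 53.4, 99.4 and 84.6 CPM in controls 1 to 4. Mutants 1 to 4 lay below every control, while mutant 5 lay just above controls 1 and 2. Its difference was -0.80 on the log2 scale (standard error 0.24) at an edgeR adjusted p of 0.0314. The call was lost without control 3, control 4, mutant 3 or mutant 4 (highest edgeR adjusted p = 0.0843) and without mutants 2 and 3 together (-0.73, edgeR adjusted p = 0.104).

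Cxcl2 had 9.93, 7.41, 8.65, 7.31 and 10.2 CPM in mutants 1 to 5, against 6.43, 6.29, 15.0 and 21.8 CPM in controls 1 to 4. All mutants lay above controls 1 and 2 and below controls 3 and 4, and the log2 fold change of -0.51 (standard error 0.37) did not pass (edgeR adjusted p = 0.295). Part of the Cxcl2 transcript, 5.84% of its 50-base words, is shared with Cxcl3, so reads there may be split between them. Cxcl1 shares no such word with another gene.

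Ccl2, which attracts monocytes through the receptor Ccr2, had the widest range among the mutants on the log2 scale, which rests on 5 counts in mutant 2. Its values were 58.0, 0.674, 14, 23.8 and 28.1 CPM in mutants 1 to 5, against 48.9, 86.2, 85.4 and 95.1 CPM in controls 1 to 4. Mutant 1 lay above control 1, and the other 4 mutants lay below every control. The log2 fold change of -1.66 (standard error 0.74) missed the threshold in edgeR (adjusted p = 0.107) but met it in DESeq2 (-1.76, adjusted p = 0.0438) and limma-voom (-2.16, adjusted p = 0.0359). In edgeR it also passed without mutant 1 (-2.25, adjusted p = 0.0393), without mutant 2 (-1.40, adjusted p = 0.0286) and without mutants 2 and 3 (-1.15, adjusted p = 0.0456).

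Cx3cl1 encodes fractalkine, a chemokine anchored in the membrane that binds Cx3cr1. It had 5.57, 3.10, 5.46, 3.36 and 3.48 CPM in mutants 1 to 5, against 6.43, 5.56, 5.15 and 11.1 CPM in controls 1 to 4. The groups overlapped, and its log2 fold change of -0.75 (standard error 0.32) missed the threshold in edgeR (adjusted p = 0.0905) and met it in DESeq2 (-0.86, adjusted p = 0.0393). Without control 4, its highest library, the log2 fold change was -0.45 (edgeR adjusted p = 0.279).

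Cxcl10, an interferon-inducible ligand of Cxcr3, had 8.60, 1.35, 1.21, 6.73 and 20.7 CPM in mutants 1 to 5, against 8.75, 11.0, 5.27 and 7.82 CPM in controls 1 to 4. Mutants 2 and 3 were below every control and mutant 5 above every control, so that the mean difference was near 0 (log2 fold change -0.08, standard error 0.71, edgeR adjusted p = 0.939). Its direction turned without mutant 2 (0.14), without mutant 3 (0.14) and without both (0.51, edgeR adjusted p = 0.399). Of its 50-base words 3.59% are shared with the overlapping Art3.

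**Figure D1:**
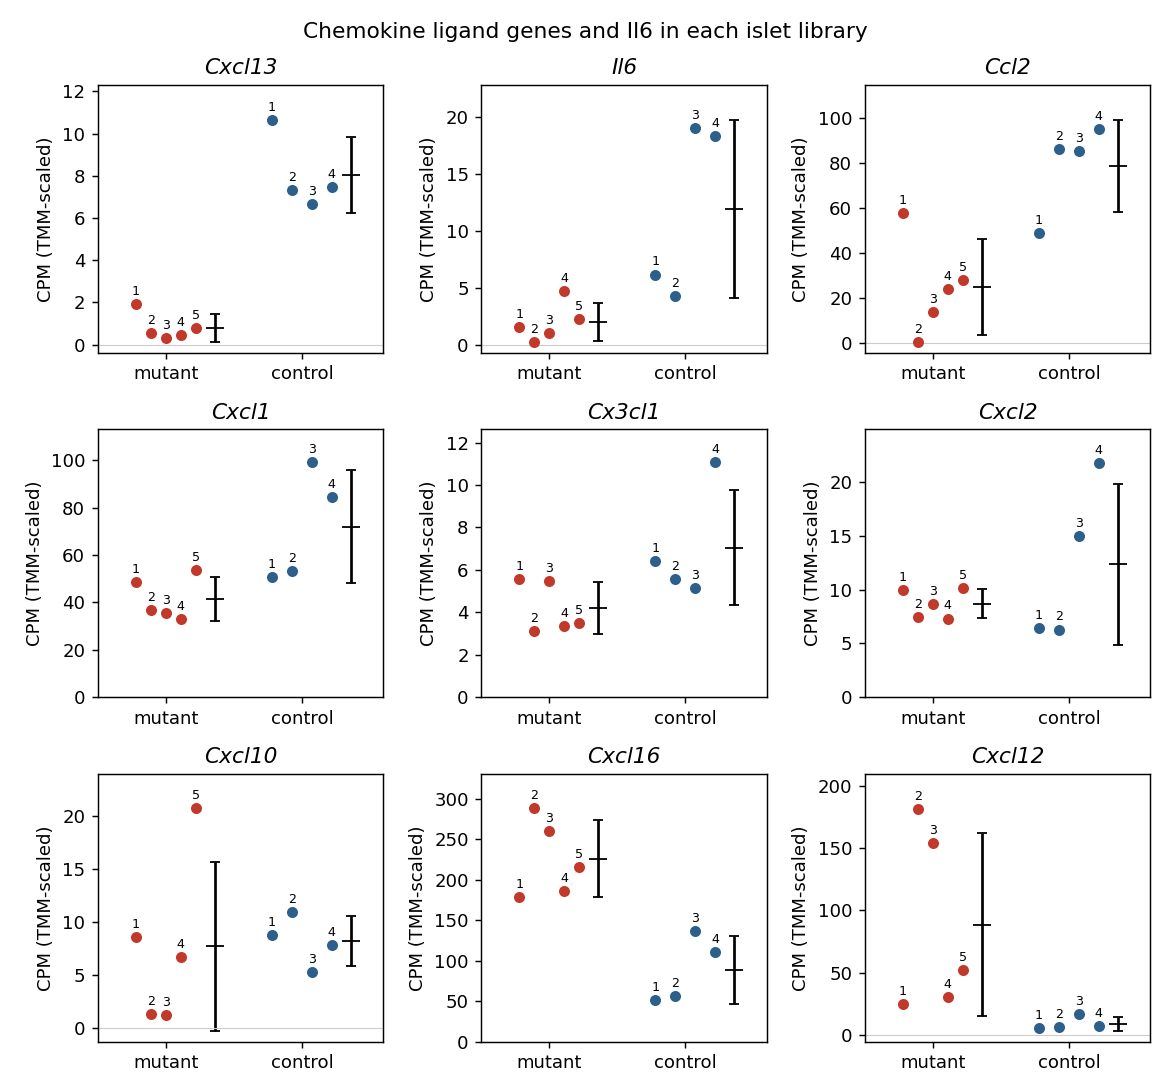
CPM of each gene (vertical axis, counts scaled to library size with TMM) in 5 mutant and 4 control libraries, with the replicate number above each point and bars for the mean ± SD. Cxcl13 lies at 0.303 to 1.94 CPM in mutants and 6.68 to 10.7 CPM in controls, and Cxcl12 at 24.6 to 181 CPM in mutants and 5.33 to 17.1 CPM in controls.

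Cxcl12, the stromal ligand of Cxcr4, was higher in every mutant than in any control, as were 18.5% of all genes tested. It had 24.6, 181, 154, 30.9 and 52.2 CPM in mutants 1 to 5, against 5.33, 6.15, 17.1 and 7.60 CPM in controls 1 to 4. Mutants 2 and 3 stood far above the other 3 mutants. The difference was 3.29 on the log2 scale (standard error 0.71), or 9.76-fold, at an edgeR adjusted p of 0.00896. Without mutants 2 and 3 it was 1.92 (standard error 0.42) at an edgeR adjusted p of 0.0157, so the size of the rise rests largely on those libraries and its direction and call do not.

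Cxcl16, a membrane-bound ligand of Cxcr6 that also acts as a scavenger receptor, had 179, 289, 261, 187 and 215 CPM in mutants 1 to 5, against 51.4, 56.3, 137 and 111 CPM in controls 1 to 4. Every mutant lay above every control. The difference was 1.34 on the log2 scale (standard error 0.31) at an edgeR adjusted p of 0.0120. Without mutants 2 and 3 it was 1.06 and did not pass (edgeR adjusted p = 0.0539). Cxcl16 overlaps Zmynd15 on the other strand, with which it shares 16.9% of its 50-base words, and the strand setting of the counting is unknown. Zmynd15 itself had 168 to 263 counts in mutants and 34 to 171 in controls, 11.3% to 13.2% of the Cxcl16 counts in mutants and 9.04% to 17.2% in controls. Scaled to library size, Zmynd15 was also higher in every mutant than in any control. Its log2 fold change was 1.12 (standard error 0.38, edgeR adjusted p = 0.0486).

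**Figure D2:**
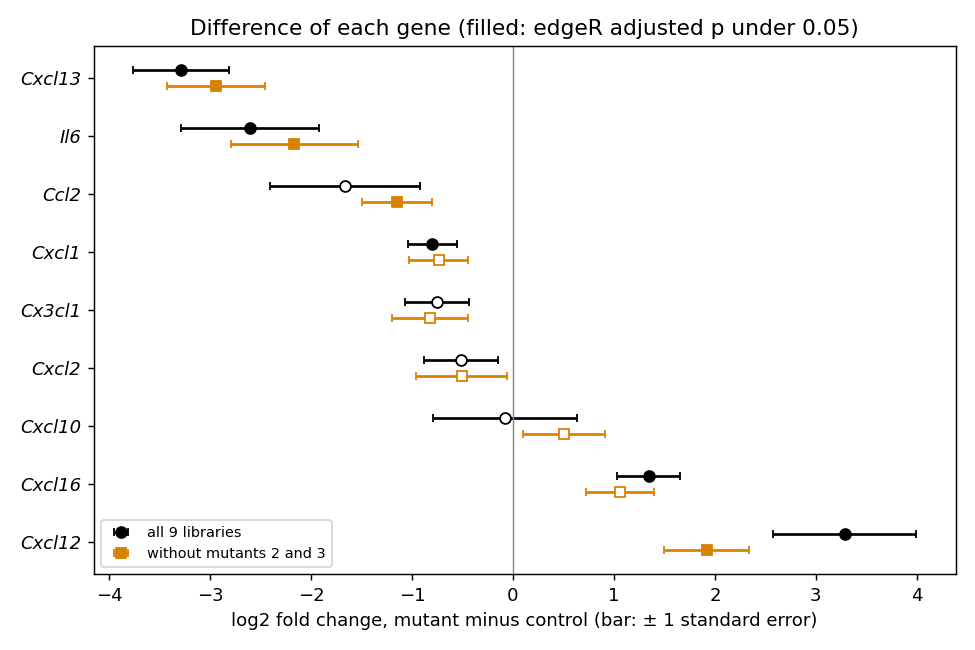
Log2 fold change, mutant minus control, of each gene with bars of 1 standard error, from all 9 libraries (black circles) and without mutants 2 and 3 (orange squares), filled where the edgeR adjusted p was under 0.05. Cxcl13 and Il6 stay on the lower side and Cxcl12 on the higher side in both fits, while Cxcl10 lies at -0.08 and 0.51.

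Levels per kilobase of exon put the 9 genes on one scale. The length was that of all GENCODE M21 exons of a gene, merged over its transcripts, since the annotation behind the counts is not given. In mutants the order of mean levels was Cxcl16 (74.8 ± 15.7 CPM per kb), Cxcl1 (22.1 ± 4.86), Ccl2 (21.9 ± 18.7), Cxcl12 (10.8 ± 9.0), Cxcl2 (4.20 ± 0.651), Cxcl10 (3.43 ± 3.54), Cx3cl1 (1.07 ± 0.309), Il6 (0.812 ± 0.693) and Cxcl13 (0.699 ± 0.573; SD, n = 5 each). In controls it was Ccl2 (69.3 ± 18.0 CPM per kb), Cxcl1 (38.4 ± 12.7), Cxcl16 (29.4 ± 13.9), Cxcl13 (6.99 ± 1.55), Cxcl2 (5.98 ± 3.62), Il6 (4.91 ± 3.22), Cxcl10 (3.64 ± 1.05), Cx3cl1 (1.79 ± 0.694) and Cxcl12 (1.11 ± 0.667; SD, n = 4 each). Cxcl16 alone stood clear of its neighbour in mutants, at 59.3 CPM per kb or more against 51.0 or less for Ccl2 and 28.6 or less for Cxcl1. In controls the ranges of the first 3 genes overlapped, Cxcl16 (17.0 CPM per kb or more) stood clear of Cxcl13 (9.27 or less), and neighbouring genes further down overlapped. Cxcl13 was in place 4 of 9 in controls and last in mutants, and Cxcl12 last in controls and in place 4 in mutants. These places depend on the merged length, which was 8176 bases for Cxcl12 and 1150 for Cxcl13, while the transcripts present are not known. By CPM alone Cxcl12 averaged 9.04 in controls, above Cxcl10 (8.20), Cxcl13 (8.04) and Cx3cl1 (7.05). The 9 genes together held 0.0246% to 0.0421% of counts in mutants and 0.0222% to 0.0465% in controls, ranges that overlap.

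Within the mutants the 9 genes did not move as 1 block. Relative to the control mean on the log2 CPM scale, mutant 2 had the lowest Ccl2 (-6.36) and Il6 (-4.24) and the highest Cxcl12 (4.44) and Cxcl16 (1.82). Mutant 3 was like mutant 2 in Cxcl12 (4.20) and Cxcl10 (-2.47) and had the lowest Cxcl13 (-3.85). Mutant 1 was nearest to the controls for Cxcl13 (-1.89) and Ccl2 (-0.40), and mutant 4 for Il6 (-1.03). Among the controls, libraries 3 and 4 were above libraries 1 and 2 in Il6, Cxcl1, Cxcl2, Cxcl16 and Cxcl12, and not in the other 4 genes.

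**Figure D3:**
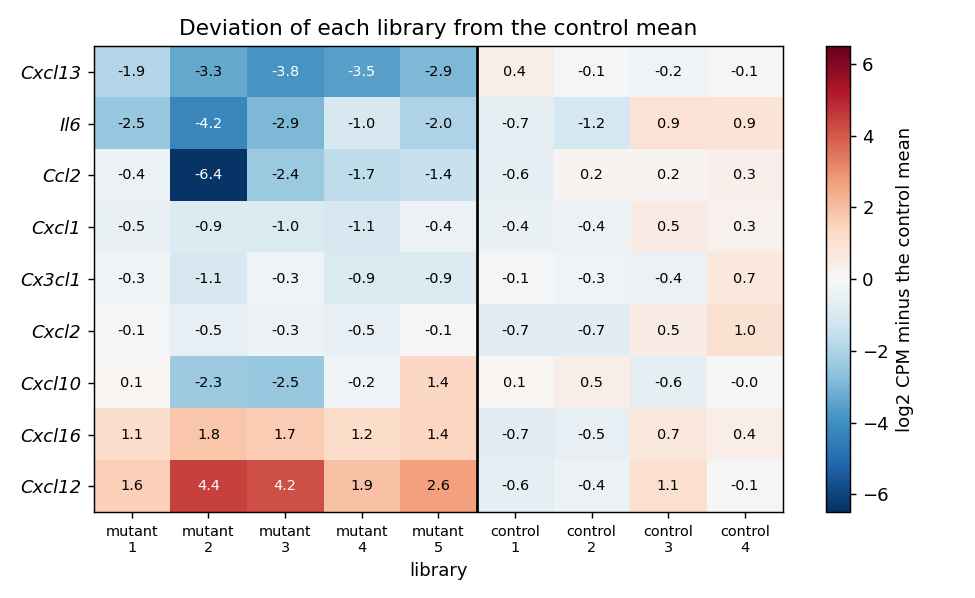
Log2 CPM of each gene (rows) in each library (columns, 5 mutants left of the line and 4 controls right of it) minus the control mean of that gene, with red for higher and blue for lower. Ccl2 in mutant 2 (-6.36) is the lowest value and Cxcl12 in mutant 2 (4.44) the highest.

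Markers of macrophages, endothelium and stroma overlapped between the groups in their summed levels. The 13 macrophage markers summed to 313 to 564 CPM in mutants and 87.2 to 470 CPM in controls. Cd14 held most of the sum in mutants and in controls 3 and 4, but not in controls 1 and 2. Without Cd14, a choice made after seeing the data, the markers summed to 11.5 to 107 CPM in mutants and 47.1 to 83.5 CPM in controls. Endothelial markers (10 genes) summed to 8.63 to 94.7 CPM in mutants and 54.3 to 170 CPM in controls, and stellate and fibroblast markers (10 genes) to 2.97 to 173 CPM in mutants and 57.4 to 119 CPM in controls. The last 3 sums were lowest in mutant 2, where Ccl2 had 5 counts. They were highest among the mutants in mutant 1, the mutant with the most Ccl2 and Cxcl13. In mutant 2 Lyz2, C1qb, Cdh5, Kdr, Flt1, Col1a1 and Pdgfrb were at 0. Some other markers of the 3 lists were not, with Cd68 at 50 counts, Mrc1 at 18, Plvap at 29, Egfl7 at 23 and Rgs5 at 16. Cxcl12, described above as stromal, was instead highest in mutant 2 (181 CPM) and lowest among the mutants in mutant 1 (24.6 CPM). The part of these cells in the levels of the 9 genes was not tested. Lymphocyte markers summed to 0.809 to 7.27 CPM in mutants and 1.05 to 2.20 CPM in controls, and neutrophil markers to 0.135 to 0.803 CPM in mutants and 0.547 to 3.35 CPM in controls, with Retnlg, Elane, Mpo and Ngp at 0 in all 9 libraries. Of the tested markers 0 of 10 macrophage genes, 0 of 9 endothelial genes and 2 of 8 stellate genes were lower in edgeR, and 0 were higher.

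The acinar sum of 16 genes was higher in each mutant than in any control (15 of 16 genes higher, 0 lower), and 10 ductal markers summed to 16299 to 27939 CPM in mutants and 4314 to 12381 CPM in controls (4 higher, 1 lower). Cxcl12 and Cxcl16 were, like both sums, higher in every mutant than in any control. Among the mutants the order differed in part. Cxcl12 and Cxcl16 were highest in mutants 2 and 3, which had the highest acinar sums (182462 and 169003 CPM). The acinar score, the mean log2 CPM of the 16 genes, was instead highest in mutant 4 (11.27, against 10.93 and 10.95 in mutants 2 and 3). Mutant 4, with the highest ductal sum (27939 CPM, against 17830 and 17723 CPM in mutants 2 and 3) and an acinar sum of 158884 CPM, had less of both genes than mutant 5, whose acinar sum was 74221 CPM. The part of these cells in the 2 rises was not tested. The group accounted for 94.9% of the variance of the acinar score, and with that score in the model 0 of the 9 genes passed, as did 0 of all genes tested in edgeR, with 329 at an unadjusted p under 0.05. With the score of 21 endocrine granule genes as a covariate 0 of the 9 passed in edgeR and 4 had an unadjusted p under 0.05, the nearest being Cxcl13 (-2.49, edgeR adjusted p = 0.0545). DESeq2 was not run with these covariates.

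Among the other ligands, chosen as whole families, most had few counts. Of 20 other CC ligand genes 10 were tested, and 3 were lower and 0 higher, with a median log2 fold change of -0.78. Beside this count and those of the lists that follow, 11.8% of all genes tested were lower and 20.6% higher. Ccl7 and Ccl11, which lie next to Ccl2 on chromosome 11 (Ccl2 from 82035577, Ccl7 from 82045712, Ccl11 from 82057832) and attract monocytes and eosinophils, were lower in every mutant than in any control. Ccl7 had 63, 0, 28, 48 and 26 counts in mutants 1 to 5, against 96, 256, 221 and 273 in controls 1 to 4 (log2 fold change -2.58, standard error 0.70, edgeR adjusted p = 0.0216). It passed in each fit that left out 1 library (highest edgeR adjusted p = 0.0489). Ccl11 had a log2 fold change of -1.94 (edgeR adjusted p = 0.0204), which did not pass without control 4 (-1.62, edgeR adjusted p = 0.0618) or without mutants 2 and 3 (-1.67, edgeR adjusted p = 0.0757) and was -2.57 without mutant 1. Ccl5, a T cell and monocyte attractant, had 18 to 54 counts in mutants and 73 to 127 in controls (log2 fold change -1.31, standard error 0.31, edgeR adjusted p = 0.0134).

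Of 10 other CXC and C ligand genes 4 were tested, of which Cxcl17, a mucosal chemokine, was higher and 0 were lower. Cxcl17 had 6, 105, 68, 19 and 20 counts in mutants 1 to 5, against 2, 3, 2 and 4 in controls 1 to 4 (log2 fold change 4.14, standard error 0.91, edgeR adjusted p = 0.00986). Its counts too were highest in mutants 2 and 3, and at 2 to 4 counts in controls the size is uncertain; limma-voom gave an adjusted p of 0.0545. Cxcl5, a relative of Cxcl1 chosen here after its values were seen, had 390, 647, 491, 876 and 1063 counts in mutants 1 to 5, against 124, 142, 2989 and 4335 in controls 1 to 4. The 4 controls thus spanned more than the 5 mutants, and it did not pass (log2 fold change -1.19, standard error 0.87, edgeR adjusted p = 0.304). Controls 3 and 4 were the high libraries, as for Cxcl1, Cxcl2 and Il6.

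The receptors of these ligands were near the limit of detection. Of 18 chemokine receptor genes 15 had fewer than 10 counts in every library, among them 3 with 0 counts in all 9, and 1, Ccr7, had enough counts to be tested and did not pass (log2 fold change -0.83, edgeR adjusted p = 0.325). Differences in these receptors, which leukocytes carry, were not detectable at this depth. Of 5 atypical receptors, which bind chemokines without G protein signalling, 2 were tested. Ccrl2 had 87, 34, 22, 64 and 42 counts in mutants 1 to 5, against 147, 108, 138 and 210 in controls 1 to 4, each mutant below each control (log2 fold change -1.50, standard error 0.33, edgeR adjusted p = 0.00991). The other, Ackr3, listed as Cxcr7, is a second receptor of Cxcl12 and did not pass (log2 fold change 0.26, edgeR adjusted p = 0.797).

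In the interleukin 6 family 9 of 13 ligand and receptor genes were tested, 2 were higher and 0 lower. The 2 were receptor genes of related cytokines, Lifr (log2 fold change 0.87, edgeR adjusted p = 0.0282) and Il11ra1 (1.11, edgeR adjusted p = 0.0436). Il11ra1 passed in 1 of the 9 leave-one-out fits, that without control 3, and Lifr did not pass when control 2, 3 or 4 or mutant 2 or 3 was left out (highest edgeR adjusted p = 0.114 and 0.0815). Neither passed without mutants 2 and 3, nor did Il11ra1 with RLE scaling (edgeR adjusted p = 0.0595). The receptor of interleukin 6 itself, Il6ra, had 15.1 CPM in mutants and 35.8 CPM in controls on average and lay below every control in every mutant, without passing (log2 fold change -1.25, standard error 0.49, edgeR adjusted p = 0.0728). It passed without mutant 1 or mutant 2 (lowest edgeR adjusted p = 0.0406). Il6st, which encodes gp130, had a log2 fold change of 0.71 (edgeR adjusted p = 0.101) and passed without mutant 4 (edgeR adjusted p = 0.0354). These 2 receptor genes are named after their values were seen.

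Of 10 genes of JAK-STAT3 signalling 3 were lower and 0 higher, against 11.8% and 20.6% of all genes tested. Stat3, the transcription factor that interleukin 6 activates, had 2414, 1347, 1272, 1398 and 1678 counts in mutants 1 to 5, against 3693, 3241, 4305 and 5159 in controls 1 to 4, each mutant below each control (log2 fold change -1.23, standard error 0.17, edgeR adjusted p = 0.00206). Socs3, the feedback inhibitor that STAT3 induces, had 10.5 CPM in mutants and 24.0 CPM in controls on average (log2 fold change -1.20, edgeR adjusted p = 0.00959). Ptpn6, a phosphatase of cytokine receptors, had a log2 fold change of -0.54 (edgeR adjusted p = 0.0290), lost without control 1, control 4, mutant 3 or mutant 5 and without mutants 2 and 3 (highest edgeR adjusted p = 0.0929). Stat3 and Socs3 passed in each fit that left out 1 library and without mutants 2 and 3, and Stat3 also with the endocrine score as a covariate (-0.97, edgeR adjusted p = 0.0325).

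Of 16 inducing cytokine and receptor genes 14 were tested, 2 were higher and 2 lower. Il1b, the ligand that the title of the series names, had 14, 0, 4, 3 and 5 counts in mutants 1 to 5, against 45, 51, 82 and 99 in controls 1 to 4 (log2 fold change -3.63, standard error 0.62, edgeR adjusted p = 0.00388). Every mutant lay below every control. Ticam1, an adaptor of Toll-like receptor 3, was also lower (log2 fold change -1.06, edgeR adjusted p = 0.0287), lost without control 1, control 4 or mutant 5. Ifngr2, a subunit of the interferon gamma receptor, was higher by 0.66 (edgeR adjusted p = 0.0105, but 0.0586 without mutants 2 and 3), and Myd88, the adaptor of interleukin 1 receptors, by 0.50 (edgeR adjusted p = 0.0481), Myd88 passing in 1 of the 9 leave-one-out fits, that without control 3, and neither with RLE scaling (edgeR adjusted p = 0.0981), nor in DESeq2 (adjusted p = 0.0893), nor without mutants 2 and 3 (edgeR adjusted p = 0.067). The genes of interferon gamma and interleukin 17A had 0 counts in all 9 libraries. Tnf and Il1r1, named after their values were seen, did not pass and differed in direction. The log2 fold change of Tnf was 0.97 (standard error 0.35, edgeR adjusted p = 0.0579). For Il1r1, below every control in every mutant, it was -1.85 (standard error 0.79, edgeR adjusted p = 0.0929).

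Of 13 transcription factor genes that act on chemokine genes 2 were higher and 3 lower. Rela, the NF-kB subunit, had 497, 955, 812, 543 and 624 counts in mutants 1 to 5, against 326, 242, 378 and 527 in controls 1 to 4 (log2 fold change 1.05, edgeR adjusted p = 0.0130), and did not pass without mutants 2 and 3 (0.64, edgeR adjusted p = 0.0649). Irf3, a factor of the interferon response, was higher by 1.38 (edgeR adjusted p = 0.00445). Cebpd, a C/EBP factor, had a log2 fold change of -1.73 (standard error 0.16, edgeR adjusted p = 0.00114). Rel and Irf1 had log2 fold changes of -1.01 and -0.997 (edgeR adjusted p = 0.0452 and 0.0414). Rel passed in 2 of the 9 leave-one-out fits (without mutant 1 or mutant 5), as did Irf1 (without control 3 or mutant 4), and neither passed without mutants 2 and 3.

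Among factors after transcription, 1 of 9 genes of messenger RNA decay and stability was higher and 0 lower. That gene was Zfp36l1, which promotes decay of messengers with AU-rich elements, with a log2 fold change of 1.57 (standard error 0.32, edgeR adjusted p = 0.00744). Of 5 genes of ectodomain shedding 4 were higher and 0 lower, against 20.6% and 11.8% of all genes tested. Timp3, also in that list, did not pass (log2 fold change -0.82, edgeR adjusted p = 0.152). Adam10 and Adam17 encode the proteases that release Cxcl16 and Cx3cl1 from the membrane, and their log2 fold changes were 1.124 and 0.78 (edgeR adjusted p = 0.0173 and 0.00576). Rhbdf1 and Rhbdf2 encode iRhoms, which bring Adam17 to the cell surface, with log2 fold changes of 2.36 and 1.61 (edgeR adjusted p = 0.00303 and 0.0192). Adam10 did not pass without control 1 (edgeR adjusted p = 0.0577) or without mutants 2 and 3 (0.62, edgeR adjusted p = 0.0514), and Rhbdf2 did not without control 1, control 2 or mutant 3 or without mutants 2 and 3 (1.39, edgeR adjusted p = 0.0762). Adam17 and Rhbdf1 passed in each of these fits.

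**Figure D4:**
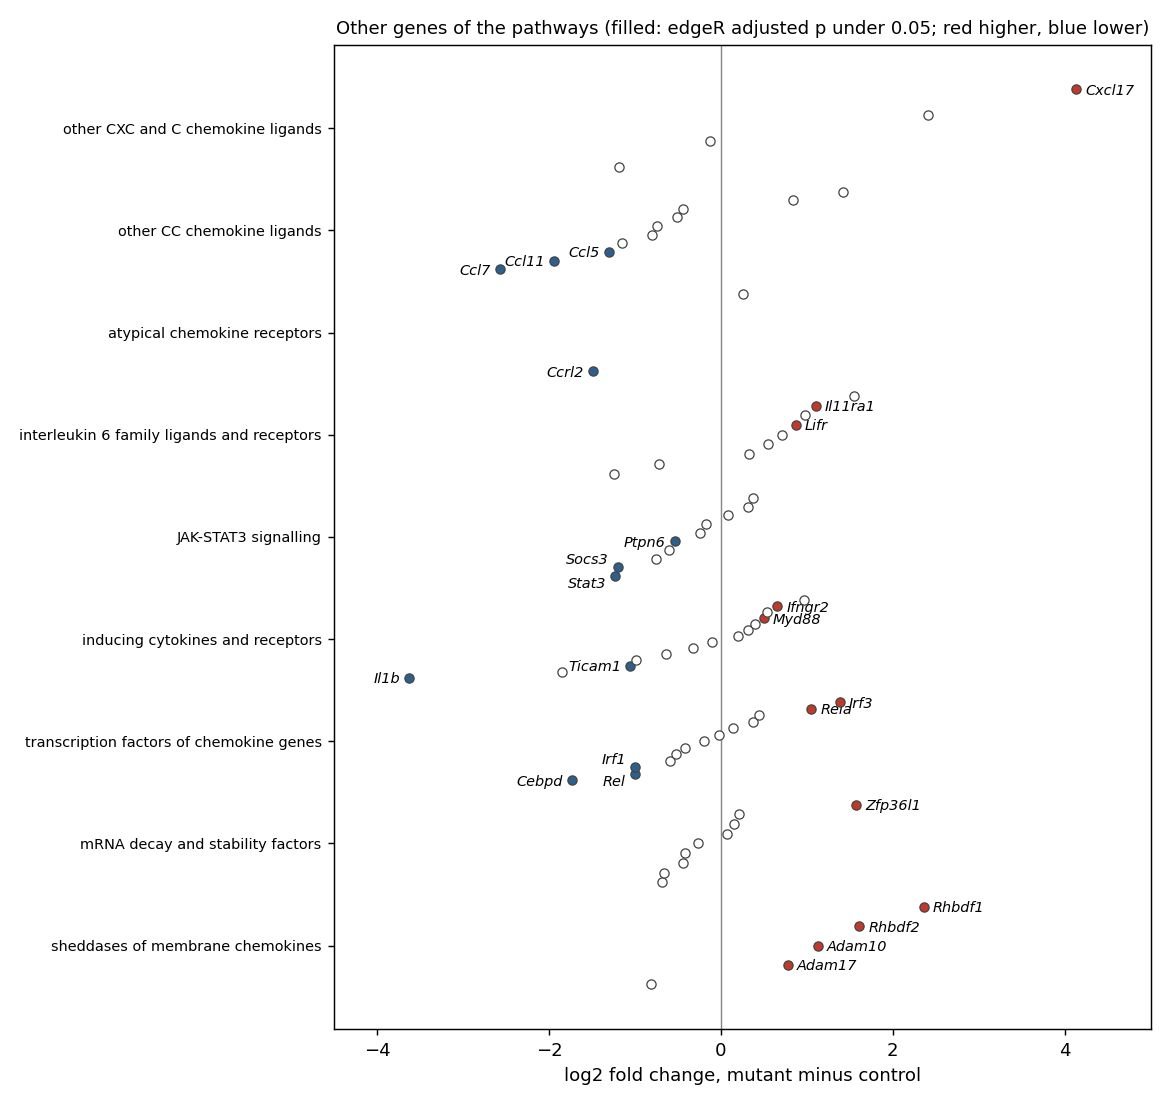
Log2 fold change, mutant minus control, of each tested gene in 9 pathway lists (chemokine receptors, with 1 tested gene, are not drawn; points are spread vertically for legibility), filled and named where the edgeR adjusted p was under 0.05. Cxcl17 (4.14) is the highest point and Il1b (-3.63) the lowest.

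The genes whose level over the 9 libraries was most like that of a called gene were taken by the smallest root mean square difference of mean-centred log2 CPM, among genes averaging 1 or more on the log2 CPM scale. For Cxcl12 they included Cyp2c70 (0.26) and Gamt (0.36), and for Cxcl16 they were Dusp16 (0.14), Tax1bp3 (0.16) and Ppfibp2 (0.16). For Cxcl13 they were Ikzf4 (0.44), P4ha1 (0.50) and March4 (0.51), for Il6 Tfpi2 (0.39), Olfm4 (0.47) and Gja4 (0.48), and for Cxcl1 Ppp1r3d (0.19), Nfkb1 (0.23) and Unk (0.24). These are descriptions over libraries that share depth and cell makeup.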

How the data were processed

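Polyadenylated RNA of pancreatic islets was counted in 5 mutant and 4 control libraries. The authors deposited raw read counts, 1 row per gene symbol. Per the submitters' processing notes the tools of the series included DESeq2, RSEM, HOMER, Signac, Seurat, STAR, Bowtie2 and Cell Ranger, with R 4.1.0 and build mm10 but no roles, and the aligner, annotation and strand setting behind these counts are not given in the sources used here. Groups come from the sample titles. No pair of libraries in a group agreed within sampling noise.

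Counts were fitted across the whole table with edgeR 4.0.16 (R 4.3.3): filterByExpr, TMM scaling, quasi-likelihood test, two-sided, Benjamini-Hochberg adjustment over 12402 genes and a threshold of 0.05. Standard errors are the unshrunken log2 fold change over the square root of F, and log2 CPM used a prior count of 2. Alternatives were RLE scaling, TMM without hormone genes, filters, DESeq2 1.42.0, limma-voom (limma 3.58.1), a replicate block, covariates and left-out libraries. The fit was tested on simulated data (12130 genes). There it found 20.8% of the 96 genes simulated with a 2-fold difference. At a 4-fold difference it found 79.4% of 97 genes. Genes simulated without any difference made up 3.96% of what it called. Failing the threshold therefore says little against a difference of about 2-fold. The 9 genes and all lists were chosen with earlier results of these data known. Named genes were the 9, those past the threshold in each list (otherwise up to 3 of lowest p) and the 3 of most similar profile to each called gene, of which 1 is not reported here. Genes listed under older symbols (5) were matched through RefSeq, from which promoters (GRCm38.p6) were read.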

Additional observations from a re-analysis of the deposited data

Results flagged for a closer look

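In groups of 4 or 5 libraries, a library was singled out where its gap to the nearest other library took an unusually large share of the group's range (Dixon's 95% limit). Over 37 genes and 74 groups, 4 were singled out, and chance gives about 1 in 20. None was among the 9 chemokine and Il6 genes. Ccl11 was high in mutant 1, at 2.18 CPM. Socs3 was low in mutant 2, at 5.66 CPM. Ptpn6 was high in mutant 4, at 21.7 CPM, as was Irf1 in the same library, at 65.4 CPM. The 37 genes did not include Cxcl14, Pf4, Il11, Il1a and Pdgfra, whose high values in mutant 1 are given below. The number singled out therefore does not cover them.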

How the results depend on the processing

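All genes called higher numbered 1658 with the replicate block, 1355 without mutants 2 and 3, 470 with the endocrine and 0 with the acinar covariate, against 2560, and 1579 to 2702 with 1 library left out. Genes called lower numbered 2555 in DESeq2, 2294 in limma-voom, 774 with the replicate block, 62 with the endocrine score and 0 with the acinar score, against 1462, and 699 (without control 1) to 1865 with 1 library left out. Of the 9 genes 2 were higher in each fit that left out 1 library, 1 without mutants 2 and 3 (Cxcl12), and 0 with either covariate. Lower were 2 to 4 with 1 library left out, 5 in DESeq2 and 0 with either covariate. With the acinar score, nearly collinear with the group, directions turned for Cxcl1 (0.32), Cxcl2 (0.66), Cxcl10 (4.85), Cxcl12 (-2.09), Cxcl13 (1.40), Ccl2 (1.69), Cx3cl1 (0.78), Pdx1 (0.33), Il1b (0.31), Cxcl17 (-2.28), Ccl11 (0.54), Il6ra (2.36), Lifr (-0.91), Rela (-0.082), Rel (2.16), Irf3 (-0.24), Adam10 (-0.79). With the endocrine score they turned for Cxcl10 (1.56), Ccl2 (0.45), Ccr7 (0.19), Il6ra (0.11), and Cxcl10 also turned to 0.14 without mutant 2, 0.14 without mutant 3 and 0.51 without both (range with 1 library left out, -0.86 to 0.14). The cause was not tested. Libraries sharing a replicate number did not clearly deviate together (correlations of 0.05, -0.02, 0.18 and -0.05). Such low values give no ground for pairing them but cannot exclude a shared origin. The replicate block moved Cxcl1 to -0.87 (edgeR adjusted p = 0.0799) and Ccl11 to -1.86 (edgeR adjusted p = 0.0704). Cxcl17 had too few counts to be tested without mutants 2 and 3. Depth limits Cxcl13, Il6 and Il1b in mutants and most chemokine receptors, 1 count being 0.121 to 0.152 CPM in mutants.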

Other observations

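Mutant 1 stood apart from the other mutants in several secreted factors, chosen after their values were seen. Cxcl14 had 753 counts in mutant 1 and 0, 81, 6 and 4 in mutants 2 to 5, against 12, 5, 25 and 92 in controls. Pf4 had 163 counts in mutant 1 and 4, 34, 3 and 3 in mutants 2 to 5, against 22, 23, 47 and 100 in controls. Il11 and Il1a were also highest in mutant 1, at 2030 and 490 counts, and did not pass (edgeR adjusted p = 0.859 and 0.810). The fibroblast marker Pdgfra, chosen in the same way, had 469 counts in mutant 1 and 1, 62, 2 and 4 in mutants 2 to 5, against 1, 0, 5 and 66 in controls. Other markers of its list differed. In mutant 1 Dcn had 442 counts, against 75, 72, 140 and 201 in controls 1 to 4. Col1a2 had 20 counts there, against 84, 46, 39 and 107, and Acta2 had 18 counts in mutant 1 and 48 in mutant 5.

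Cd14 had 1709 to 3616 counts in mutants, against 277 and 274 in controls 1 and 2 and 3591 and 2804 in controls 3 and 4. Cxcl5, Il6, Cxcl1, Cxcl2, Cxcl16 and Cxcl12 were also higher in controls 3 and 4 than in controls 1 and 2. The same order held for the ductal sum (4446, 4314, 12381 and 8253 CPM in controls 1 to 4), in which Spp1 had 5225, 5561, 44781 and 26300 counts. It held for the endothelial sum too (67.1, 54.3, 126 and 170 CPM), and for the macrophage markers Csf1r, Lyz2, C1qb and Fcer1g. It did not hold for the remaining macrophage markers besides Cd14 (C1qa, C1qc, Cd68, Emr1, Itgam, Mrc1, Fcgr1 and Tyrobp). Nor did it hold for the macrophage sum without Cd14 (58.2, 47.1, 49.9 and 83.5 CPM). The part of this difference between controls in the results was not tested.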
